A study of Mus musculus with 13 samples.

Results

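H3K27ac ChIP–seq peak lists from 9 mouse melanoma cell lines were joined, and the regions called in a single line were examined. Peaks that overlapped or touched were merged across the lists, which gave 59668 regions. Of these, 57653 were autosomal and narrower than 10 kb, and 19740 of them (34.2%) overlapped a peak of exactly 1 list. A further 531 single-list regions on sex chromosomes or unplaced contigs and 1 autosomal region of 10 kb or wider were left out. The 19740 members were thus chosen from the peak calls themselves, so their number, strength, width and clustering are described without a test.

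The lines came from melanomas of Tyr::NRAS Q61K; Cdkn2a +/-; Cdh1 F/F mice, in which the tyrosinase promoter drives the oncogenic transgene. ΔEcad lines also carried Tyr::CreA, a Cre recombinase under the tyrosinase promoter that deletes Cdh1 (E-cadherin) in the melanocyte lineage, whereas Ecad lines had no Cre and kept the floxed gene. Ma_1007 and Ma_1181 were male Ecad, Ma_1014 and Ma_1039 female Ecad, Ma_1062 and Ma_1456 male ΔEcad, and Ma_1057, Ma_1064 and Ma_1069 female ΔEcad. The groups contrast E-cadherin loss and sex, and with 1 list per line the line was the replicate.

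Acetylation of lysine 27 on histone H3 (H3K27ac) marks the nucleosomes that flank active promoters and enhancers. Promoters tend to be shared between cells, whereas enhancers vary more between cell states and are bound by lineage and signal-dependent factors such as AP-1 (the JUN and FOS family), MITF and SOX10 in melanocytes, TEAD factors downstream of YAP1, and TCF/LEF, the DNA-binding partners of β-catenin. A peak caller reports a region only past a threshold, so a region called in 1 line may still carry acetylation below the threshold in the other 8. The lists hold no reads, so the sequencing depth behind each call is unknown.

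Sequences are shown first for the results they carry, all on the plus strand of GRCm38 (mm10). The first pair contrasts 2 kinds of top-ranked member, from 100 bp left to 100 bp right of the summit, with matches to the motifs searched in capitals. The Ma_1181 window (chr2:98662567-98662767) lies in an intron of Gm10801, has a fold enrichment of 2.35 and holds 3 SOX and 2 RUNX matches. The Ma_1014 window (chr15:8632995-8633195) lies between genes, 7755 bp from the nearest start of Slc1a3 (a glutamate transporter gene), has a fold enrichment of 79.9 and holds 1 SOX match.
Ma_1181 Gm10801: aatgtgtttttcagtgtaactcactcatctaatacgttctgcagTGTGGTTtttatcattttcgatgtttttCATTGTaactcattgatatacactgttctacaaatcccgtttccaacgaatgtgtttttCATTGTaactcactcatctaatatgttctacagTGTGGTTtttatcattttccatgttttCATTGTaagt
Ma_1014 Slc1a3: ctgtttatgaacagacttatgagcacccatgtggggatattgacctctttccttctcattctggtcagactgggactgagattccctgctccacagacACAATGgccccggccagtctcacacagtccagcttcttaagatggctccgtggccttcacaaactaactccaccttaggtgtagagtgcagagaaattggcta

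The next windows of 61 bp are centred on a motif match, in capitals. They come from the highest-ranked members with such a match (2 in Ma_1456, 2 in Ma_1069 and 1 of the first 2 in Ma_1057), in lines whose members held that motif most often, and were picked after the motif shares were known. The Ma_1456 matches are AP-1 sites at chr6:111258129-111258189 in an intron of Grm7, a metabotropic glutamate receptor gene, and at chr6:53759801-53759861 between genes. The Ma_1069 matches are TCF/LEF sites at chr5:27344020-27344080 in an intron of Dpp6 and at chr2:159535687-159535747 between genes. The Ma_1057 match is a TCF/LEF site at chr3:132929028-132929088 in an intron of Npnt, which encodes an extracellular matrix protein. The matches lay 38 to 215 bp from the summit.
Ma_1456 Grm7: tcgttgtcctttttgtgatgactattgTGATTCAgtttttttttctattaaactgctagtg
Ma_1456 chromosome 6: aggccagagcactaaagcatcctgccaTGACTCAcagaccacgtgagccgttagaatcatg
Ma_1069 Dpp6: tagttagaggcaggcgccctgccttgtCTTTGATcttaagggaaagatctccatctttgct
Ma_1069 chromosome 2: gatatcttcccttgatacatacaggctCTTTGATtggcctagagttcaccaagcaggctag
Ma_1057 Npnt: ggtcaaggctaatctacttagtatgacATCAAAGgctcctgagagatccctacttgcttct

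The number of members differed widely between lines. Among the Ecad lines, Ma_1007 had 7116, Ma_1181 had 1858, Ma_1014 had 1803 and Ma_1039 had 557. Among the ΔEcad lines, Ma_1456 had 3714, Ma_1069 had 1732, Ma_1064 had 1648, Ma_1062 had 739 and Ma_1057 had 573. Both genotypes held lines with many and lines with few members, so the genotypes overlapped. The female lines ran from 557 to 1803, and of the male lines only Ma_1062 with 739 lay in that range. The male lines Ma_1181, Ma_1456 and Ma_1007 stood above every female line. Ma_1007 alone supplied 36.05% of all members, and Ma_1456 supplied 18.8%.

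These numbers did not simply follow list length. Ma_1007 had the longest list (41663 peaks), and 18.9% of its regions were members. Ma_1069 had the shortest list (20741 peaks), yet 10.2% of its regions were members, whereas Ma_1039 with 29181 peaks had a share of 2.25%. When every list was cut to the length of the shortest, the total fell to 12740. Ma_1007 then held 1261 members, whereas Ma_1069 held 2614 and Ma_1456 held 2415.

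The count of a line also depended on which other lists it was set against. Ma_1039 went from 557 to 1453 members when Ma_1014, the other female Ecad line, was left out and the regions were rebuilt. Ma_1057 went from 573 to 1285 without Ma_1069 and to 960 without Ma_1064, the other female ΔEcad lines. Leaving out Ma_1007, the longest list, raised Ma_1039 to 954, Ma_1062 to 1117, Ma_1064 to 2782 and Ma_1181 to 2834. Of the 8154 regions called in exactly 2 lists, 793 were shared by Ma_1014 and Ma_1039 and 576 by Ma_1057 and Ma_1069. Such sharing did not follow the groups throughout, since Ma_1007 shared 995 with Ma_1064 and 880 with Ma_1181, and Ma_1064 and Ma_1069 shared 44.

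Most members were weak calls. Strength was taken as the percentile of the −log10 q of a peak among all peaks of its own list, with 75 or above called strong and below 25 called weak. Of the 19740 members, 11434 (57.9%) were weak, 7853 (39.8%) lay between, and 453 (2.29%) were strong. The strong members made up 0.786% of the 57653 regions. The median percentile of members ran from 12.3 in Ma_1039 to 26.2 in Ma_1069.

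Strong members were unevenly spread over the lines. Ma_1456 had 129, Ma_1007 had 84, Ma_1069 had 83, Ma_1181 had 64, Ma_1014 had 49, Ma_1064 had 20 and Ma_1062 had 19. Ma_1057 had only 4 and Ma_1039 only 1. As a share of the members of the line, Ma_1069 stood highest at 4.79%, above Ma_1456 at 3.47% and Ma_1181 at 3.44%, whereas Ma_1007 was at 1.18%. The member just inside the strong class stood at percentile 75.1 (Ma_1069, chr6:40131510-40132890) and the one just outside at 74.95 (Ma_1007, chr8:124416915-124419204), with −log10 q of 41.9 and 112.7, since each list has its own scale.

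**Figure D1:**
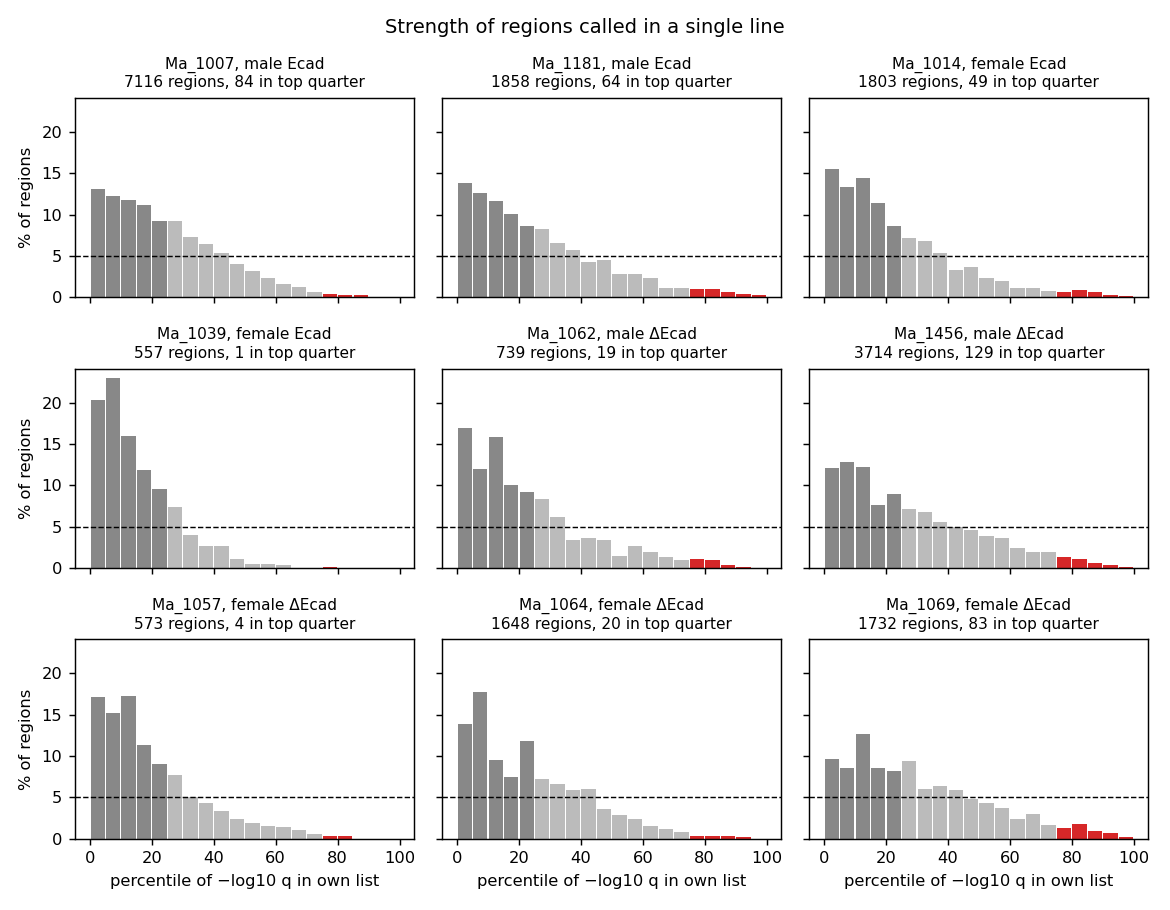
Histogram of the strength of members in each of the 9 lines. The x axis is the percentile of −log10 q within the line's own list in bins of 5, the y axis is the percentage of the line's members, dark grey bars are weak, red bars are strong members, and the dashed line at 5% is where an even spread over the list would lie. In all 9 panels the 5 lowest bins stand above the dashed line and the red bars below it.

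Many weak members sat near the calling threshold. The lists reached down to a −log10 q of 5, and 30.7% of members, including 53.0% of the weak ones, lay below 10. Per line this share was lowest in Ma_1181 at 24.7% and highest in Ma_1057 at 53.8%. Among regions of the same lines that other lists also called, it ran from 5.24% to 13.2%. The median fold enrichment was 4.36 for weak members and 17.7 for strong members.

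Width followed strength. Weak members had a median width of 421 bp and strong members of 2218 bp. The line medians for all members ran from 400 bp in Ma_1039 to 750 bp in Ma_1456, against 1050 to 1367 bp for the peaks of the same lines in shared regions. In the strong class, the line medians of member width (1670 to 2561 bp) overlapped those of shared peaks (2075 to 2553 bp). The widest member spanned 7612 bp at Hif3a in Ma_1014 (chr7:17055644-17063255), and the single-list autosomal region left out by the width limit spanned 10760 bp (chr12:109410341-109421100).

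Weak members lay beside a peak of another list more often than strong ones, although most did not. The nearest peak of any other list was within 1 kb of 16.4% of weak members and of 19 strong members (4.19%). At the other end, 63 strong members (13.9%) had no peak of another list within 100 kb, against 5.33% of weak members. Ma_1456 held 22 and Ma_1069 held 17 of these isolated strong members. One of them, in an intron of Cacna2d3 (a calcium channel subunit gene) in Ma_1069, lay 536308 bp from the nearest peak of another list.

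Members were poor in promoters at either strength. A peak was placed at a promoter where an annotated transcription start site lay within 1 kb of it, and a region of several lists where this held for any of its peaks. Of all members, 13.8% were at a promoter, 52.3% lay elsewhere in a gene and 33.9% between genes. The share of regions at a promoter was 18.5% for regions called in 2 lists and 58.7% for regions called in all 9, whose median widths were 1037 and 3095 bp against 584 bp for members.

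The difference held within the weak class of each list, the peaks below percentile 25. There, 11.8% of weak members were at a promoter in Ma_1007, 14.0% in Ma_1181, 14.9% in Ma_1014, 13.1% in Ma_1039, 15.0% in Ma_1062, 10.53% in Ma_1456, 8.73% in Ma_1057, 10.4% in Ma_1064 and 9.21% in Ma_1069. Peaks of the same class and list that other lists also called, each taken at its own width, ranged from 13.5% in Ma_1007 to 32.2% in Ma_1069 and were higher in all 9 lines. The mean difference was -14.0 ± 5.86 percentage points (SD of the 9 differences, exact paired permutation test, two-sided p = 0.00391, the smallest that 9 lines allow, adjusted p = 0.0104 over 8 tests).

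In the strong class the gap was wider. Strong members were at a promoter in 16.6 ± 10.5% (SD, n = 9 lines) and shared regions in 45.8 ± 7.06%. The share was lower in all 9 lines, with a mean difference of -29.2 ± 10.3 percentage points (SD of the differences, exact paired permutation test, adjusted p = 0.0104). Shared regions of different lines overlap, so the 9 differences are not fully independent, and Ma_1039 and Ma_1057 contribute only 1 and 4 strong members. Strength was not matched within the class. In every line more strong members lay at percentiles 75 to 80 than at 95 to 100, in Ma_1007 33 against 3. In shared regions of Ma_1007 the promoter share was 13.5% in the weak and 53.5% in the strong class. How much unequal strength adds to the gap was not tested.

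**Figure D2:**
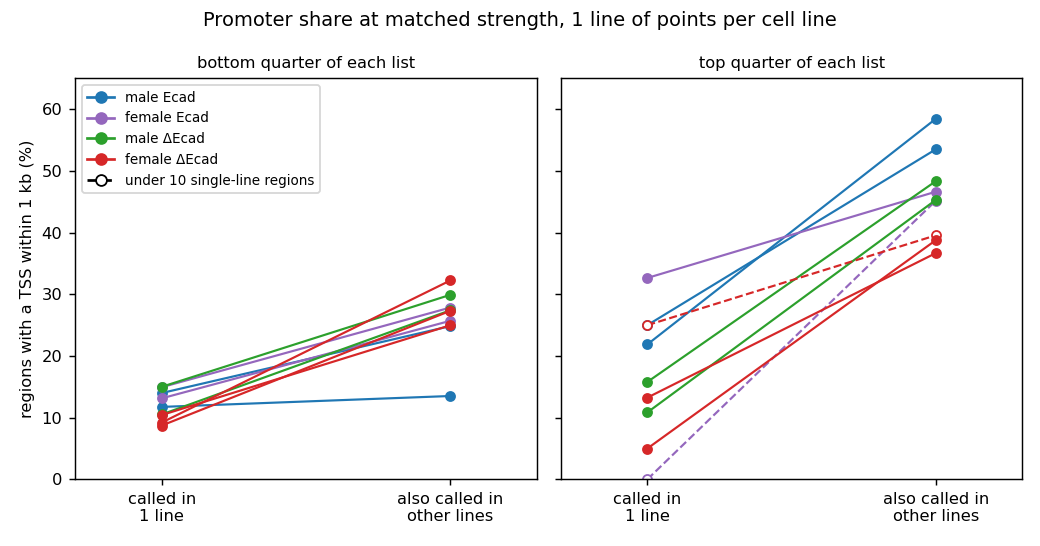
Share of regions with a start site within 1 kb (y axis, percent), for members (left points) and regions that other lists also called (right points) of each line, in the lowest 25% (left panel) and highest 25% (right panel) of the list. Each joined pair is 1 cell line coloured by group, and open points with dashed lines mark lines with under 10 strong members. Every line slopes upwards in both panels, and least so for Ma_1007 in the left panel, from 11.8% to 13.5%.

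Members also had a lower GC content. It was not compared among peaks away from promoters, so this is not shown to be separate from the promoter difference. In windows reaching 250 bp to either side of the summit, weak members averaged 44.5 ± 0.828% GC (SD, n = 9 lines) and shared regions of that class 47.1 ± 0.983%, lower in all 9 lines (exact paired permutation test, adjusted p = 0.0104). Strong members averaged 47.4 ± 2.86% against 50.1 ± 2.02%, lower in 8 of 9 lines (adjusted p = 0.0312, same exact test). Strong members were more GC-rich than weak members of the same line in 9 of 9 lines, by 2.92 ± 2.67 percentage points (adjusted p = 0.0156 over 4 tests, exact paired permutation test). Cutting the lists to equal length ended these last 2 calls (adjusted p = 0.05 and 0.609, exact tests), and the 2.92 points fell to 1.16, and without Ma_1007 they were 1.46 (adjusted p = 0.469).

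The share of weak members with the summit inside a gene was 67.3 ± 3.84%, against 70.8 ± 1.71% for shared regions of the weak class (lower in 8 of 9 lines, exact paired permutation test, adjusted p = 0.0312). Leaving out any of Ma_1181, Ma_1062, Ma_1456, Ma_1057, Ma_1064 or Ma_1069 ended that call. Strong minus weak members gave 4.63 ± 10.3 percentage points for promoter share (higher in 7 of 9 lines, exact paired permutation test, adjusted p = 0.438), and the adjusted p was 0.844 for both gene overlap and AP-1 share, so no difference was detectable in these measures.

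Between groups of lines, no annotation measure of the members passed the correction over 12 tests. The promoter share of members was 16.2% in Ma_1007, 16.4% in Ma_1181, 15.5% in Ma_1014 and 14.0% in Ma_1039, and 16.2% in Ma_1062, 10.6% in Ma_1456, 9.42% in Ma_1057, 11.2% in Ma_1064 and 9.64% in Ma_1069. The ΔEcad lines other than Ma_1062 lay below all Ecad lines. The means were 11.4 ± 2.79% (SD, n = 5) in ΔEcad and 15.5 ± 1.07% (SD, n = 4) in Ecad lines (exact permutation test, two-sided p = 0.0476, adjusted p = 0.19). In shared regions the promoter share was 33.8 to 43.0% in ΔEcad lines, highest in Ma_1062, and 36.7 to 46.6% in Ecad lines.

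The GC content of members did not overlap between genotypes. It was 45.7 to 46.3% in the 4 Ecad lines and 43.2 to 44.9% in the 5 ΔEcad lines, a difference of -1.70 percentage points (exact permutation test, p = 0.00794, the smallest that 5 against 4 lines allow, adjusted p = 0.0952). Shared regions of the same lines had 49.2 to 51.7% in Ecad and 47.9 to 49.4% in ΔEcad lines. There Ma_1062 (49.39%) lay above Ma_1039 (49.22%). A lower GC content in ΔEcad lines was thus not particular to members. Members of female and male lines averaged 45.0 ± 0.851% (n = 5) and 45.0 ± 1.36% (n = 4) by the same exact test (adjusted p = 0.992). Gene overlap and AP-1 shares of members gave adjusted p values from 0.905 to 0.97 in the 3 group comparisons by exact permutation tests.

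Motif content set individual lines apart. A motif was counted when its letters occurred on either strand in the same summit window. TCF/LEF was searched as CTTTGAA or CTTTGAT, AP-1 as TGANTCA, RUNX as TGTGGTT, MITF as TCACGTG or TCATGTG, SOX as ACAATG or ACAAAG, TEAD as GGAATG and ETS as CCGGAAG. The SOX letters ACAAAG and the TCF/LEF letters share CTTTG on opposite strands. The reversed letters of TCF/LEF, AP-1 and RUNX, which have the same base composition, were counted beside them. A match describes the sequence and does not show that a factor was bound.

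TCF/LEF matches were most frequent in members of female ΔEcad lines. They were in 33.0% of the 1732 member windows of Ma_1069, 29.0% of the 573 of Ma_1057 and 22.6% of the 1648 of Ma_1064. The other lines had 22.1% in Ma_1181, 20.9% in Ma_1456, 19.8% in Ma_1007, 18.7% in Ma_1039, 18.4% in Ma_1014 and 16.8% in Ma_1062. All 3 female ΔEcad lines were above all 6 others, although Ma_1064 exceeded Ma_1181 by little, and in windows of 500 bp to either side of the summit Ma_1064 (39.87%) was not above Ma_1181 (39.94%). Over all 57653 regions the share was 19.96%. Strong members of Ma_1069 had matches in 21.7% of windows (n = 83) and weak ones in 33.8% (n = 825). Shared regions of its strong class had 19.4%. The high share of Ma_1069 in this window thus lay mainly in members below the strong class. In windows of 500 bp to either side these shares were 71.1%, 61.6% and 44.6%. Strong members of Ma_1456 had 22.5% in the main window (n = 129). Ma_1057 and Ma_1064 had few strong members.

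The mean share was 28.2 ± 5.27% (SD, n = 3) in female ΔEcad lines and 19.4 ± 1.90% (SD, n = 6) in the others, a difference of 8.74 percentage points. The exact permutation test gave p = 0.0119, the smallest that 3 against 6 lines allow, and 0.143 after adjustment over the 18 tests of 6 motifs in 3 comparisons. That test was added after the shares had been seen, with earlier results of these data known, and is not independent evidence. The reversed letters occurred in 14.5% of member windows in Ma_1069, 17.8% in Ma_1057 and 16.8% in Ma_1064, and in 12.9 to 17.1% of those of the other lines.

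Regions of the same lines that other lists also called differed less. TCF/LEF matches were in 20.5% of them in Ma_1069, 20.1% in Ma_1057 and 20.3% in Ma_1064, and in 17.0 to 18.4% in the 6 other lists. The 576 regions called in exactly Ma_1057 and Ma_1069 had a share of 31.1%, the 275 called in exactly Ma_1007 and Ma_1069 had 29.1%, the 97 called in exactly Ma_1181 and Ma_1069 had 34.02%, and the 793 called in exactly Ma_1014 and Ma_1039 had 19.04%. High shares were thus not limited to pairs in which both lines were female ΔEcad, but every pair above 23.1% included a female ΔEcad line. Pairs without such a line ran from 12.6% in Ma_1014 and Ma_1062 to 23.1% in Ma_1181 and Ma_1039 (39 regions). Not every pair with such a line was high. Ma_1062 and Ma_1064 had 18.3% of 60 regions, and Ma_1456 and Ma_1069 had 12.5% of 16.

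AP-1 matches stood out in 1 male ΔEcad line. They were in 30.0% of the 3714 member windows of Ma_1456, against 13.1% in Ma_1181, 14.2% in Ma_1014, 15.6% in Ma_1062, 15.6% in Ma_1069, 16.9% in Ma_1064, 17.98% in Ma_1057, 18.9% in Ma_1039 and 21.1% in Ma_1007. Regions of Ma_1456 that other lists also called had 17.3%, and all regions 17.6%. The reversed letters were in 15.2% of its member windows and 12.3% of its shared ones. Strong members of Ma_1456 had AP-1 matches in 25.6% of windows (n = 129) and weak ones in 30.5% (n = 1995). In windows of 500 bp to either side these shares were 63.6% and 53.4%. Over all members that window gave 56.4% in Ma_1456, and the next was Ma_1007 at 37.9%. In windows of 100 bp to either side Ma_1456 hardly stood out, with 7.89% against 7.28% in Ma_1007. The other male ΔEcad line, Ma_1062, was among the lower shares.

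RUNX matches were most frequent in members of Ma_1064, at 18.2% against 11.6% of its shared regions and 11.4% of all regions. The 8 other lines ran from 9.60% in Ma_1014 to 13.8% in Ma_1057. Its reversed letters were in 6.98% of the member windows of Ma_1064, within the 5.76 to 7.98% of the other lines. In windows of 100 bp to either side Ma_1064 did not stand highest for RUNX, with 6.01% against 6.50% in Ma_1062. In windows of 500 bp to either side Ma_1064 had 35.8%, and the next was Ma_1057 at 27.6%. MITF matches were in 12.4 to 16.9% of member windows over the lines, TEAD matches in 23.7 to 28.1% and SOX matches in 56.8 to 60.6%, against 13.0%, 24.6% and 54.4% of all regions. ETS matches were in 2.59% of members and 5.36% of all regions.

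**Figure D3:**
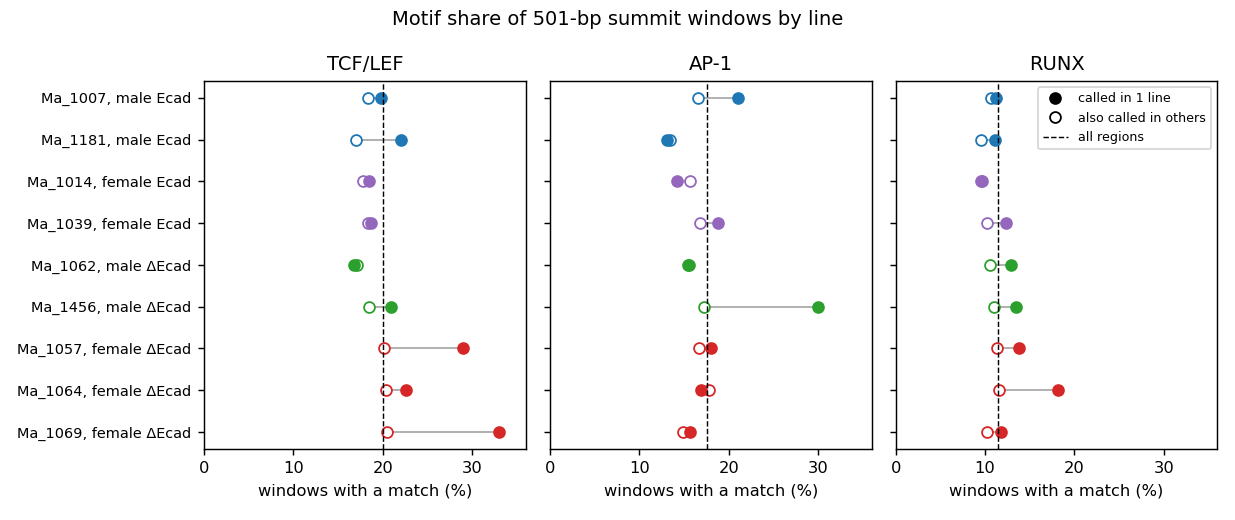
Share of summit windows (250 bp to either side) with a TCF/LEF, AP-1 or RUNX match (x axis, percent) for each of the 9 lines (rows, coloured by group). Filled points are members, open points are regions of that line that other lists also called, and the dashed line is the share over all regions. The filled point stands far to the right of the open one for TCF/LEF in Ma_1069 and Ma_1057, for AP-1 in Ma_1456 and for RUNX in Ma_1064.

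The matches were more frequent beside the summit than under it. In Ma_1069, 2.60% of members had a TCF/LEF match centred in the 50 bp just right of the summit, whereas 8.26% had one between 250 and 300 bp to the right and 7.85% between 250 and 300 bp to the left. AP-1 matches in Ma_1456 rose from 1.53% in the 50 bp right of the summit to 5.84% between 200 and 250 bp to the right. Shared regions showed the same dip at a lower level. In a narrower window of 100 bp to either side the TCF/LEF shares were lower, 10.9% in Ma_1069, 10.6% in Ma_1057 and 9.95% in Ma_1064, and the other lines had 7.002 to 9.21%.

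**Figure D4:**
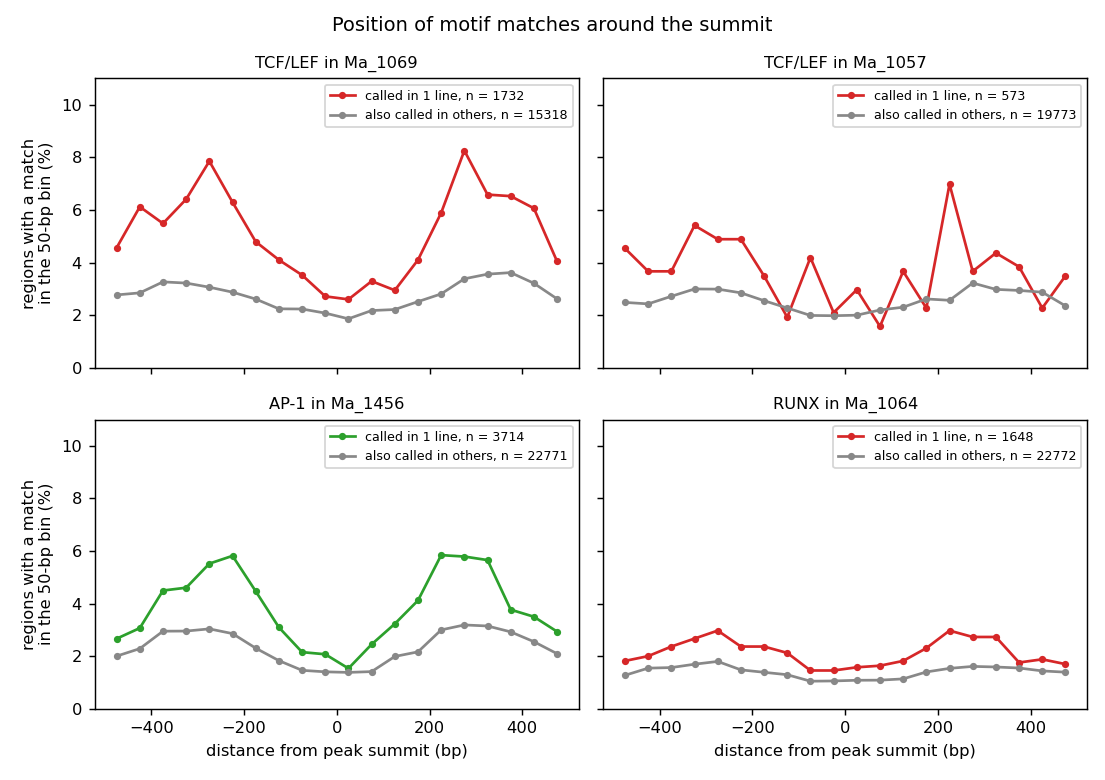
Percentage of regions with a motif match centred in each 50-bp bin (y axis) by distance of the bin from the peak summit in bp (x axis), for 4 pairs of line and motif. Coloured lines are members and grey lines are regions of the same line that other lists also called. In Ma_1069 and Ma_1456 the coloured line runs above the grey one in every bin and is lowest at the summit, and in Ma_1057 it is uneven, with only 573 members.

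The highest-ranked members of the Ecad lines differed in kind. In Ma_1014 they were the 4732-bp region 7755 bp from Slc1a3 (percentile 99.4), a region at the start of Flnc, the actin cross-linker filamin C (99.1, 13.5-fold enrichment), and an intronic region of the potassium channel gene Kcnq1 (97.4, 32.5-fold). In Ma_1007 they lay between genes, 31594 bp from Ccn5 (percentile 97.6), 81750 bp from Nfkbiz (96.4) and 16319 bp from Kif2c (95.8), the nearest protein-coding genes. Distance does not identify the gene that an enhancer acts on. In Ma_1039 the only strong member lay in an intron of the splicing kinase gene Srpk2 (percentile 78.3, 10.7-fold), and the next 2 ranked at 64.7 and 63.5.

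Ma_1181 had 2 top members of an unusual form. Its highest-ranked one, at Gm10801 (chr2:98662269-98662770), had a −log10 q of 1681 with a fold enrichment of only 2.35. The one at Gm21738 (chr14:19416944-19417909) had a −log10 q of 975.7 and a fold enrichment of 1.57. Between them ranked a region far from protein-coding genes (chr6:117462245-117467784), 293668 bp from the chemokine gene Cxcl12, with 75.2-fold enrichment. Only 6 of the 453 strong members had a fold enrichment below 5, 4 of them in Ma_1181, and these 4 had 54.1 to 95.4% of their summit window masked as repeats, against 18.2% on average for strong members.

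Among the ΔEcad lines, Ma_1456 was led by an intronic region of Pik3r5, which encodes a regulatory subunit of phosphoinositide 3-kinase (percentile 99.3, 49.8-fold), followed by a 6724-bp region far from protein-coding genes (97.5) and one 7820 bp from the germline gene Dppa3 (96.2). Ma_1062 was led by a region at an annotated start of Psd3 (93.7), and another member, in an intron of Atp8a2 (87.4), was 152284 bp from the nearest peak of another list. In Ma_1069 a region 138580 bp from the splicing factor gene Rbfox1 (97.0), an intronic one of Cacna2d3 (96.4) and an intronic one of Katnal1 (96.0) ranked highest. Ma_1064 was led by a region 62849 bp from Vcpkmt (93.2), and Ma_1057 by an intronic region of Myo5b, a myosin motor (82.5).

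Promoters of 1931 of 20780 protein-coding autosomal genes (9.29%) held a member, and those of 61 genes (0.294%) held a strong one. For 944 of the 1931 genes no other list had a peak at any annotated start of the gene, and for the rest another list had a promoter peak that the member did not overlap. Among the 61 genes with a strong member, 38 had a promoter peak in that line alone, including Gm10801 (fold enrichment 2.35) and Gm10717 and Gm10718 (1 region, fold enrichment 1.32) in Ma_1181. Of the 944 genes, Ma_1007 had 505, Ma_1181 118, Ma_1456 100, Ma_1014 99, Ma_1064 42, Ma_1062 28, Ma_1069 28, Ma_1039 16 and Ma_1057 8.

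In the Ecad lines, promoters called in that line alone included those of Flnc, Hif3a, a hypoxia-inducible factor subunit (percentile 95.3), the zinc-finger gene Zfp423 (92.2) and Lsp1 (91.2) in Ma_1014. Ma_1181 had Il4, a cytokine of type 2 immunity (percentile 96.4, 64.1-fold enrichment), and Sergef (95.5). Ma_1007 had Cngb1, a cyclic nucleotide-gated channel subunit (83.1), whereas its members at the telomerase inhibitor gene Pinx1 (88.9) and the chloride channel gene Ano1 (83.3) joined genes with a promoter peak in 5 and 8 other lists. In Ma_1039 no promoter member was strong, and the highest was Pus7 (55.5).

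In the ΔEcad lines, Ma_1456 alone had a peak at the promoters of Srrm4, a neural splicing regulator (percentile 91.0), Prom1, which encodes the surface protein CD133 (87.6), and Gpx8 (80.0). Its member at Slit2, an axon guidance ligand (83.5), joined promoter peaks in 5 other lists. Ma_1069 alone had one at Hoxb7 (90.7), a homeobox gene of axial patterning, at Arhgef3 (87.0) and at Mybpc1 (84.1), and its member at Braf, a kinase of the MAPK cascade, ranked at 94.3 while 5 other lists had a peak at a Braf start. Among the 5 highest-ranked promoter genes of Ma_1062, those called in that line alone were Rftn2 (77.7) and, below the strong class, Nwd2 (73.9) and Dner (72.3). Ma_1057 had E2f8, a cell cycle repressor (77.4), 275 bp from a peak of another list, and Ptch1, the Hedgehog receptor (73.4), with promoter peaks in 6 and 7 other lists. Ma_1064 had Atf6, a factor of the unfolded protein response (73.5), with promoter peaks in 8 other lists, and Acap1 (73.1), called in that line alone.

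Gene lists of melanoma states and signalling were compared with the 9.29% of all genes. Of 14 genes of the invasive state, 5 (35.7%) had a member at a promoter, namely Axl, Ccn1, Tcf4, Wnt5a and Fosl1. Axl, a receptor tyrosine kinase, was called in Ma_1007 alone (percentile 68.6), Wnt5a, a non-canonical Wnt ligand, in Ma_1181 alone (54.4 and 21.8), and Fosl1, an AP-1 subunit, in Ma_1456 alone (29.5). Tcf4 had promoter peaks in all 9 lists, and its members were weak, at percentiles 0.263 in Ma_1069 and 5.07 in Ma_1456. Ccn1 had promoter peaks in Ma_1014 and Ma_1456. Of 19 receptor tyrosine kinases, 6 (31.6%) had a member. Fgfr4 in Ma_1069 (percentile 79.6, 10.8-fold, chr13:55153929-55155857) was the only strong one on any list, and Erbb2 and Pdgfra in Ma_1007 and Fgfr1 in Ma_1181 were called in those lines alone, at percentiles of 29.3, at most 47.8 and 39.6. Met and Fgfr2 had promoter peaks in all 9 lists.

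The other lists lay nearer the background or held few genes. Members were at the promoters of 2 of 15 melanocyte lineage genes (Kit and Gpnmb), 2 of 16 neural crest genes (Twist1 and Zeb2), 3 of 35 Wnt pathway genes (Apcdd1, Lef1 and Lgr5), 2 of 18 cytokines and chemokines (Il33 and Cxcl12), 1 of 15 RAS–MAPK feedback genes (Dusp5), 2 of 23 classical cadherins (Cdh3 and Cdh9), 1 of 26 integrins (Itga8) and 1 of 7 sex hormone and bombesin receptors and ligands (Gper1). Dusp5, a phosphatase of ERK, was called in Ma_1007 alone at percentile 72.7, and Gper1, a membrane oestrogen receptor, in Ma_1456 alone at 12.8. The lists are small and the genes were counted without a test.

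Promoter peaks in any of the 9 lists were also counted at cell type markers. The share over all genes is not given for this count. A count over all lists together does not show the lineage of each line. Kit, for example, had a promoter peak in 5 lists and Gpnmb in 9. All 15 melanocyte genes had a promoter peak in at least 1 list, as did 5 of 6 Schwann cell markers. Of the markers of other cell types, 1 of 11 immune, 1 of 7 endothelial, 1 of 7 keratinocyte, 2 of 8 fibroblast, 2 of 7 neuronal and 0 of 6 muscle genes had one in any list. Members accounted for the endothelial Tek and for the fibroblast Pdgfra, both in Ma_1007 alone, Tek as a weak call at percentile 10.4.

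Members gathered in local clusters in some lines. A cluster was a run of at least 5 members of 1 line with gaps of at most 50 kb, and 220 clusters held 1449 members (7.34%). Ma_1007 had 146 of them with 13.5% of its members, Ma_1456 had 27, Ma_1014 and Ma_1069 had 11 each, Ma_1064 and Ma_1181 had 10 each, Ma_1057 had 3, Ma_1039 had 2 and Ma_1062 had none. In lists cut to equal length 42 clusters were left, and without Ma_1007 there were 143. Of the 220 clusters, 181 held no strong member, and 96 had the minimum of 5 members.

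The largest cluster was in Ma_1057, a line with few members. It held 25 members over 192.1 kb at Pvt1, a long noncoding RNA gene next to Myc (chr15:62060115-62252246), none strong, with percentiles of 0.494 to 61.01 and a median fold enrichment of 5.38. Ma_1057 had 39 peaks in that span covering 39.8% of it, whereas the other lists had 5 in Ma_1039, 6 in Ma_1181, 9 in Ma_1014, 10 in Ma_1456, 10 in Ma_1069, 11 in Ma_1062, 13 in Ma_1064 and 19 in Ma_1007. A second cluster of 10 members lay at Gsdmc4 and Fam49b (chr15:63895722-63986037) and another of 9 between them (chr15:63012465-63113190). Chromosome 15 held 13.3% of the members of Ma_1057 against 4.73% of its shared regions.

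Ma_1039 showed a similar pattern at another site. Its largest cluster held 18 of its 557 members over Sh3pxd2a, which encodes the invadopodia scaffold TKS5 (chr19:47286705-47436967), with percentiles of at most 39.5. Its list had 36 peaks there covering 41.9% of the span, against 4 to 15 peaks in the other lists. Chromosome 19 held 10.4% of its members and 3.04% of its shared regions. In both lines the members lay among regions that other lists also called, 12 in the Pvt1 span and 16 in the Sh3pxd2a span. No input library is recorded for Ma_1057, Ma_1039 or Ma_1007. Whether the DNA copy number of these lines bears on such dense weak calls was not tested.

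The other named clusters were of mixed form. In Ma_1007 they covered Chst11, a chondroitin sulfotransferase gene (18 members), and Nav1 (17 members), in Ma_1181 Myo16 (12 members) and Slc12a2, a chloride cotransporter gene (11 members), and in Ma_1064 Atf6 (9 members). At Slc12a2, as at Gsdmc4 and Fam49b, the other lists together had 1 peak. Other clusters held 2 or 3 strong members and were picked out after their values were seen. Ma_1014 had 8 members with 3 strong at Zfp423, Ma_1069 had 5 with 3 strong in a span without annotated genes (chr2:159534282-159584066) and 5 with 2 strong from Hoxb8 to Hoxb5 (chr11:96283526-96310533), and Ma_1456 had 7 with 2 strong at Asic2. In Ma_1007 clusters of 9, 9 and 7 members, each with 2 strong, lay at Pdia4 and Zfp786, at Ano1 and at Fam135b. No shared region lay within the Zfp423, chromosome 2, Asic2 and Fam135b spans.

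**Figure D5:**
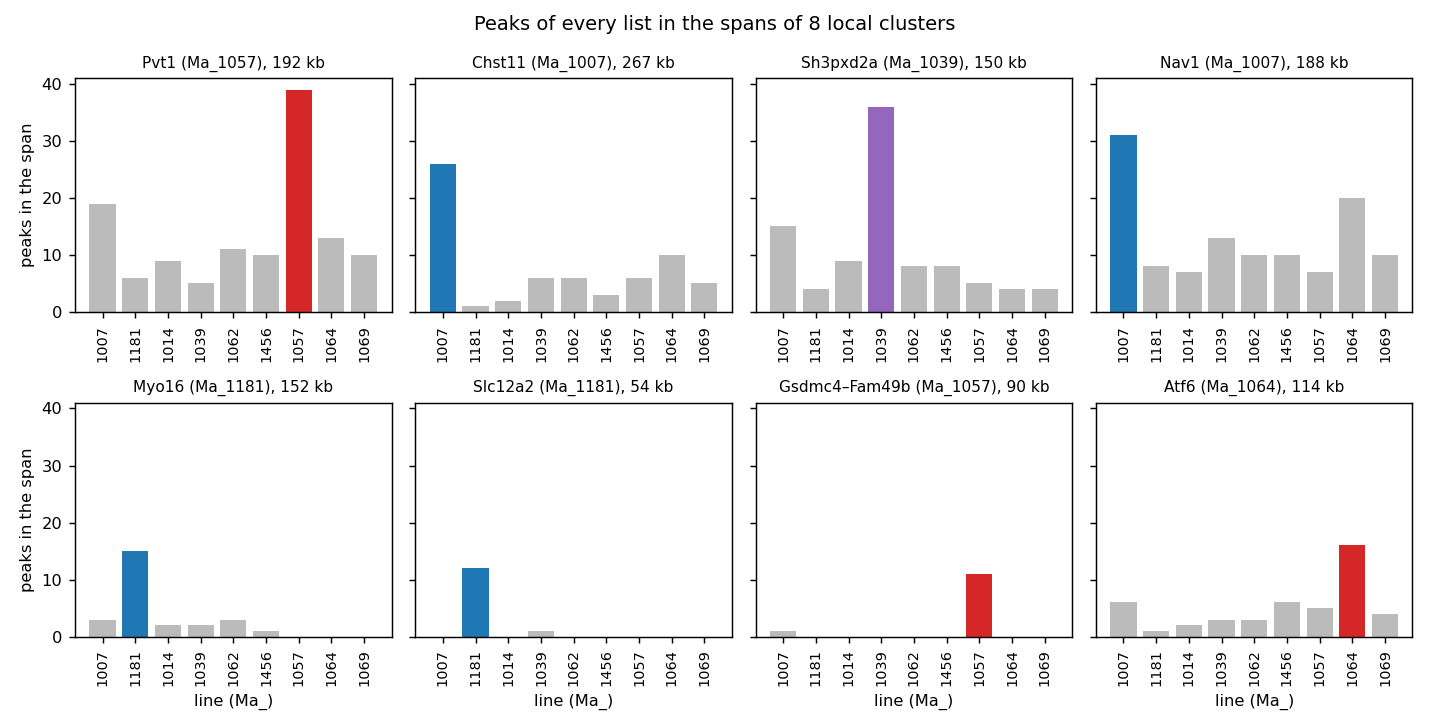
Number of peaks of each of the 9 lists (x axis, by line number) within the spans of the 8 named clusters (panels, titled by gene, cluster line and span). The coloured bar is the line whose members form the cluster and grey bars are the other lists. The coloured bar is highest in all 8 panels, with 39 peaks for Pvt1 in Ma_1057 and 36 for Sh3pxd2a in Ma_1039.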

How the data were processed

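H3K27ac ChIP–seq had been performed on 9 mouse melanoma lines, 1 library each, and 4 input libraries were not analysed here. The inputs are recorded for Ma_1181, Ma_1014, Ma_1062 and Ma_1069 only. Which input served as control for each list is not given in the sources used here. The authors aligned reads to GRCm38 (mm10) with Bowtie2. The submitters' processing notes name Bowtie2 2.4.5, MACS2 2.2.7.1 and deepTools 3.5.1.0.0, and the peak calling settings are not given in the sources used here. The deposited values of each peak are a fold enrichment (a linear ratio), a −log10 p, a −log10 q, a summit offset and a score, which repeats the −log10 q as a rounded-down multiple except in 231 of 256200 peaks. The depth of the libraries cannot be read from such lists, and intervals for counting error are therefore left out.

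Peaks that overlapped or touched were joined, and strength was the percentile of −log10 q within the list. Annotation was GENCODE release M21 and sequence the RefSeq copy of GRCm38. Exact two-sided permutation tests over lines were adjusted by the Benjamini–Hochberg method within families of 12, 4 and 8 tests, and 18 motif tests were added later. The labels do not say that lines came from separate mice, so p-values measure only the spread between these lists. Named items were the 3 highest-ranked members of each line, the 5 protein-coding genes with the highest-ranked promoter member in each line (a selection of both is described), the 8 largest clusters (at most 2 per line) and listed genes with a strong promoter member. A 201-bp window was read at the top member of each line and 2 of these are shown. A few named items and 1 sequence window are not reported here. The members and lists were chosen with earlier results of these data known. Alternatives covered joining, list length, threshold, overlap, width, promoter, window and cluster definitions and leaving out each line. The analysis was tested on simulated data and used Python 3.11.15, numpy 2.4.6, pandas 2.3.3, scipy 1.17.1, pysam 0.24.0, matplotlib 3.10.9 and samtools 1.23.1.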

Additional observations from a re-analysis of the deposited data

Results flagged for a closer look

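Among 72 sets of 4 or 5 lines looked at, 6 held a line far from the rest of its genotype or sex, and chance alone marks about 5% of such sets. The share of members in clusters was 13.5% in Ma_1007 against 3.44 to 4.13% in the other Ecad lines, and 7.68% in Ma_1057 against 3.44 to 4.13% in the other female lines. The promoter share of members was 16.2% in Ma_1062 against 9.42 to 11.2% in the other ΔEcad lines, and 10.6% in Ma_1456 against 16.2 to 16.4% in the other male lines. AP-1 matches were in 30.0% of the members of Ma_1456 against 15.6 to 17.98% in the other ΔEcad lines. TEAD matches were in 28.1% of the members of Ma_1456 against 23.7 to 24.3% in the other male lines. Their causes were not tested.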

How the results depend on the processing

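The total of 19740 members fell to 12740 with lists cut to equal length and lay between 16955 and 26085 under the other settings. Leaving out each line gave 17459 to 20779. The strong share of 2.29% was 6.90% where a peak counted as single when each other list covered under 50% of it, 0.365% for the highest 10% of the list, and 1.95 to 3.04% with a line left out. Clusters numbered 425 (14.8% of members) with gaps up to 100 kb, 1081 (21.6%) with at least 3 members, and 42 (1.92%) in lists of equal length, a setting chosen after seeing the data, and 143 (without Ma_1007) to 283 with a line left out.

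The lower promoter share of members than of shared regions held in the weak and strong classes under every setting tried, as did the lower GC content of weak members. With a line left out the differences were -31.6 to -27.1 and -14.6 to -12.9 points for promoters and -2.79 to -2.44 for GC. The other 3 calls did not hold throughout. The GC difference between strong and weak members was 1.16 (exact test, adjusted p = 0.609) in lists of equal length, 2.2 (0.125) at a −log10 q of at least 10, and 3.39 (0.0625) over the 7 lines with at least 10 strong members, a setting chosen after seeing the data in which the smallest possible p cannot pass. It ranged from 1.46 to 4.01 with a line left out. The GC difference of strong members from shared regions was -3.12 (exact test, adjusted p = 0.05) in lists of equal length, -1.54 (0.344) in windows of 100 bp to either side, -2.56 (0.1) over the 7 lines, and -3.36 to -1.76 with a line left out, losing its call without Ma_1181, Ma_1062, Ma_1456 or Ma_1069. The gene overlap difference of weak members was -4.06 to -2.83 with a line left out. The cause of these losses was not tested.

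Changes of sign concerned differences that had not passed. In lists of equal length the gene overlap differences were -2.01 (female minus male), -0.35 (female ΔEcad minus others), -2.23 (strong minus weak) and -3.21 (strong members minus shared), the GC difference between the sexes -1.42, and the AP-1 differences -4.56 (strong minus weak), -0.71 (strong members minus shared) and 1.55 (weak members minus shared). At a −log10 q of at least 10 gene overlap between the sexes was -0.618, GC between the sexes -0.137 and AP-1 of weak members minus shared 0.146, and joining peaks up to 500 bp apart gave 0.459 for the last. In windows of 100 bp to either side the AP-1 differences were 0.0137 (female ΔEcad minus others), -2.05 (strong minus weak) and -0.498 (strong members minus shared). Over the 7 lines gene overlap was -6.02 (strong minus weak) and -6.83 (strong members minus shared), and AP-1 -3.47 (strong minus weak). With a line left out, AP-1 ran from -0.858 to 0.255 for weak members minus shared, -5.19 to 0.797 between the sexes, -1.48 to 4.10 between genotypes and -2.10 to 11.7 for strong minus weak. GC between the sexes ran from -0.635 to 0.233. Gene overlap ran from -2.12 to 4.97 for strong members minus shared, -2.27 to 1.65 between the sexes, -0.962 to 2.91 for female ΔEcad lines and -2.21 to 4.56 for strong minus weak.

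The TCF/LEF difference of 8.74 points was 2.61 in windows of 100 bp and 16.8 in windows of 500 bp to either side (where Ma_1064 was not above Ma_1181), 9.29 in lists of equal length, and 7.60 (without Ma_1069) to 11.7 (without Ma_1064) with a line left out, all chosen after seeing the data. Lines of different groups could not be paired, because replicate numbers follow deposition order. The paired tests above compared sets of regions within the same line. The absence of read counts limits every value to called peaks.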
